A study of Homo sapiens with 6 samples.

Results

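The expression of 10 genes of lipoprotein assembly was examined in Hep G2 cells: the apolipoprotein genes APOA1, APOA2, APOB, APOC1, APOC3, APOE, APOH, APOM and APOA4, and MTTP. They were chosen by name from the 23524 rows of the expression table, where each matched 1 row. All 10 were among the 17222 genes tested, that is, those whose FPKM (a fragment count scaled to transcript length and library size) averaged 0.1 or more over the 6 libraries.

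Hep G2, a line from a human liver tumor, secretes many plasma proteins of the hepatocyte. The control cells carried an empty lentivirus vector, and the other cells carried a lentivirus expressing EFTUD2, a GTPase of the U5 part of the spliceosome. Both were stable lines selected with puromycin, and 3 libraries of each (control and EFTUD2, replicates 1 to 3) were sequenced after poly-A selection. The study's text speaks of independent experiments in general, but neither it nor the labels say whether each library came from a separate culture, so p-values measure the spread between these libraries, which may be technical.

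Apolipoproteins are the protein coat of the particles that carry cholesterol and triglycerides through plasma. In the hepatocyte, MTTP loads lipid onto the growing APOB chain to form very-low-density lipoprotein (VLDL), while APOA1 and APOA2 are the main proteins of high-density lipoprotein (HDL). The smaller exchangeable apolipoproteins move between particles and control how lipases act on them and which receptors take them up.

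Several of the genes lie together. In RefSeq on GRCh38.p14, APOA4 (chr11:116820700-116823304, minus strand), APOC3 (chr11:116829907-116833072, plus strand) and APOA1 (chr11:116835751-116837622, minus strand) share a cluster with APOA5 that spans 48.3 kb. APOE (chr19:44905796-44909393) and APOC1 (chr19:44914325-44919346), both on the plus strand, share a cluster of 43.8 kb with APOC4 and APOC2. The others are single: APOA2 (chr1:161222292-161223628, minus strand), APOB (chr2:21001429-21044073, minus strand), MTTP (chr4:99564130-99623997, plus strand), APOM (chr6:31652404-31658210, plus strand) and APOH (chr17:66212033-66229415, minus strand). APOA1 overlaps the antisense gene APOA1-AS, and APOM overlaps BAG6. Whether reads were counted by strand is not given in the sources used here, so reads from such partners cannot be told apart.

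RefSeq promoter windows were matched for 7 of the 10 genes (APOA2, MTTP, APOM, APOA4, APOH, APOE and APOC1), as 10 windows because some genes have several starts. The 100 bases before the start are shown for 4 genes that differ in the values given below: APOH had the largest distance between the groups relative to its spread, APOE stood higher without overlap, APOA2 had the highest level and overlapped, and APOM varied most between libraries of 1 group. Capitals mark the hexamer GTTAAT in APOH and the GC box GGGCGG in APOE, whose other-strand match reads CCGCCC. The windows are chr17:66229416-66229515 (minus strand), chr19:44905696-44905795 (plus strand), chr1:161223629-161223728 (minus strand) and chr6:31655794-31655893 (plus strand), the last before a start that lies inside the APOM gene.
APOH: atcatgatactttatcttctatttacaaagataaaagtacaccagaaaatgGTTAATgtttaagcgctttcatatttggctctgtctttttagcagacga
APOE: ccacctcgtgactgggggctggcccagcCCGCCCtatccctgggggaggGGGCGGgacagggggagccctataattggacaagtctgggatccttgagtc
APOA2: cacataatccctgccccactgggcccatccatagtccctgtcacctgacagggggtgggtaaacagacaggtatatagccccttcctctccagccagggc
APOM: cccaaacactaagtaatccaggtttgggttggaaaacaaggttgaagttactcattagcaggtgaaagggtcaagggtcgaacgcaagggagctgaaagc

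These windows differ in base composition: G and C made up 31% of the bases in APOH, 47% in APOM, 59% in APOA2 and 67% in APOE. Both strands of the 250 bases before each start were searched for 5 motifs; no matches overlapped. GTTAAT, which 6.23% of 35116 human promoters hold, occurred in APOH from base -49 and, on the other strand, from base -210. GGGCGG, held by 42.6% of promoters, occurred in APOE from -51 and, on the other strand, from -72, in MTTP from -108 and -7, and in APOC1 on the other strand from -15. The nuclear receptor half-site AGGTCA (12.1% of promoters) and the TATA box TATAAA (10.7%) each occurred once, in the second MTTP window on the other strand, from -50 and -227. The HNF4 core CAAAGTCCA (0.325% of promoters) was in none of these windows, and APOA2, APOM and APOA4 held none of the 5 motifs.

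The summed FPKM per library was 404342 to 434542, and read depth is unknown because only FPKM was deposited. EFTUD2 itself was at 41.1 to 54.4 FPKM in the control libraries and 102.9 to 109.5 in the EFTUD2 libraries (log2 fold change 1.16, limma adjusted p = 0.13). The library EFTUD2 replicate 3 stood apart: the SD of its log2 differences over genes was 0.51 from replicate 1 and 0.60 from replicate 2, against 0.23 between those 2 and 0.21 to 0.36 between controls. The hepatocyte markers ALB (1773 to 3027 FPKM in control, 2215 to 4732 in EFTUD2) and AFP (846 to 2499 and 745 to 1918) were abundant in all 6 libraries. The macrophage marker TYROBP, the enterocyte marker SI and the fibroblast marker COL1A2 were listed at 0 in all 6, each as the 1 such gene of its list. Other genes of these lists were present, among them CD68 (16.7 to 33.4 FPKM over the 6 libraries), VIL1 (102 to 128) and FN1 (627 to 1232). In bulk RNA, fewer cells of a type and less RNA per cell cannot be told apart.

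In control cells the 10 genes covered a wide range of FPKM levels, which are scaled to transcript length. APOA2 was highest and the fourth row of the whole table by mean level, followed by APOA1, APOB, APOE, APOH, APOC1, APOC3, APOM, MTTP and APOA4. The control mean of APOA2 was 2.60 times that of APOA1, which was 1.57 times that of APOB. The neighbours APOE and APOH, and APOC3 and APOM, overlapped between control libraries, while the other neighbours in this order did not. The widest step was the last, from MTTP to APOA4, at 9.29 times.

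**Figure D1:**
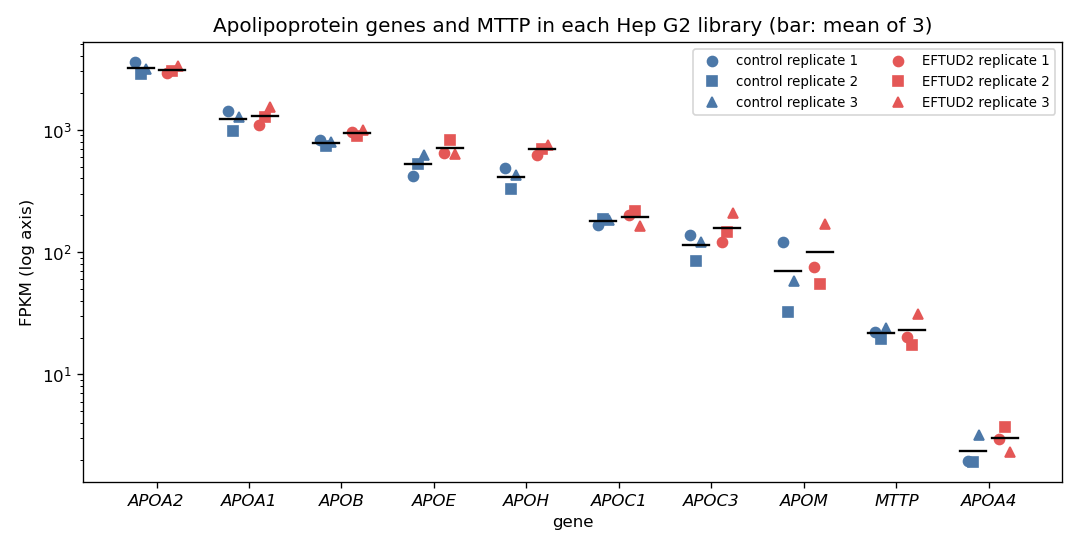
FPKM of each gene (log axis) in the 3 control (blue) and 3 EFTUD2 (red) libraries, with a bar at the mean of 3. The genes run from APOA2, with a control mean of 3192 FPKM, to APOA4, with 2.35, and the groups separate in APOB, APOE and APOH.

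None of the 10 genes differed between EFTUD2 and control cells at an adjusted p under 0.05 in limma, where 0% of the 17222 genes did. Their adjusted p ranged from 0.39 to 0.96, and the smallest of any gene was 0.13. At an unadjusted p under 0.05 there was 1 of the 10, APOH, where 12.3% of all genes passed. APOH, APOE and APOB stood higher in every EFTUD2 library than in every control library (3 of 10, against 7.92% of all genes), and 0 of 10 stood lower in this way (19.4% of all genes). The log2 fold change on log2(FPKM + 1) was above 0 in 9 of the 10, against 37.3% of all genes, with a median of 0.27 against -0.07. The sign of APOA1, APOA2 and MTTP turned under some settings, and that of the other 7 genes under none of the 16 tried. Some of these settings, such as another filter, cannot change a fold change. When libraries were weighted by limma's array weights, 1 of the 10 (APOH, adjusted p = 0.034) and 7.23% of all genes passed an adjusted p of 0.05. That fit leaned mostly on control replicate 3 (weight 27.7) and EFTUD2 replicate 2 (weight 2.3), the largest weights of each group.

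**Figure D2:**
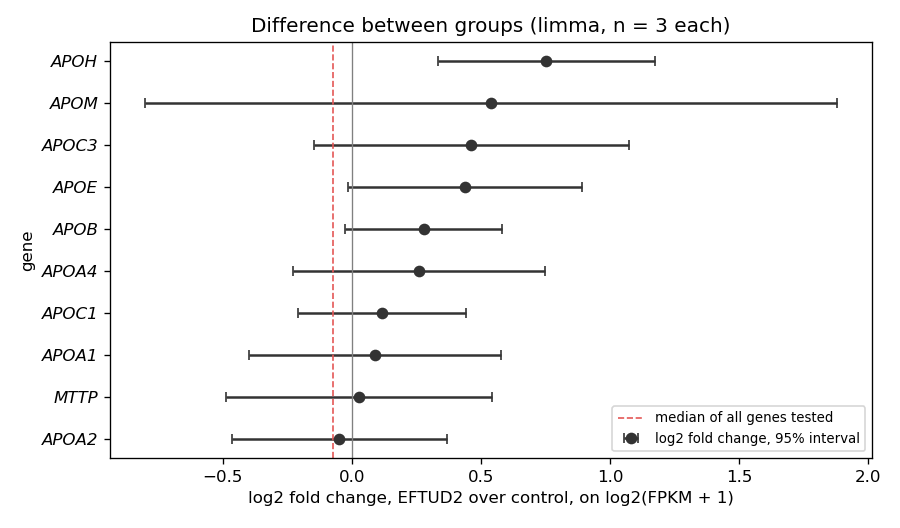
Log2 fold change of each gene, EFTUD2 over control, on log2(FPKM + 1) with its 95% interval from limma (3 libraries per group); the dashed line is the median of all genes tested, -0.07. The interval excludes 0 for APOH, from 0.33 to 1.17, and includes 0 for the other genes.

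APOB stood higher in EFTUD2 cells, and MTTP, its partner in particle assembly, overlapped between the groups. APOB, the structural protein of VLDL and of the low-density particles made from it, was at 818.92, 736.18 and 789.55 FPKM in the control libraries and 953.23, 884.57 and 1004.32 in the EFTUD2 libraries. All 3 EFTUD2 libraries were above all 3 controls, and without EFTUD2 replicate 3 the log2 fold change was 0.23. The means were 782 ± 41.9 and 947 ± 60.1 (SD, n = 3 each) and the log2 fold change was 0.28 (SE 0.13, limma adjusted p = 0.41), and the exact two-sided permutation test gave p = 0.1, the smallest possible for 3 against 3. Under quantile normalization the groups overlapped and the log2 fold change was 0.063. MTTP, the large subunit of the microsomal triglyceride transfer protein, was at 22.19, 19.4 and 23.99 FPKM in control and at 20.19, 17.31 and 31.12 in EFTUD2 cells. The highest and the lowest of these were both EFTUD2 libraries. Its log2 fold change was 0.03 (95% interval -0.49 to 0.54, limma adjusted p = 0.96), and -0.21 without EFTUD2 replicate 3, -0.02 under common sum scaling and -0.34 with array weights. The ratio of APOB to MTTP was 36.9, 37.9 and 32.9 in control and 47.2, 51.1 and 32.3 in EFTUD2 libraries, an overlap set by EFTUD2 replicate 3 (log2 difference 0.25, exact permutation p = 0.4, 0.5 after Benjamini-Hochberg adjustment over 5 ratios). Its log2 difference was 0.12 without EFTUD2 replicate 2 and 0.45 without EFTUD2 replicate 3.

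The HDL proteins APOA1 and APOA2 were the most abundant of the 10 and overlapped between groups. APOA1, which activates the cholesterol-esterifying enzyme LCAT, was at 1426.81, 983.46 and 1271.02 FPKM in control and 1097.4, 1272.53 and 1537.09 in EFTUD2 libraries. APOA2 was at 3559.15, 2882.97 and 3134.96 FPKM in control and 2893.77, 3006.3 and 3341.08 in EFTUD2 libraries. For both genes the spread within a group exceeded the distance between the group means. The log2 fold changes were 0.09 for APOA1 (95% interval -0.40 to 0.58, limma adjusted p = 0.84) and -0.05 for APOA2 (-0.46 to 0.37, limma adjusted p = 0.90). Their signs turned with the processing, APOA1 to -0.14 under quantile normalization and APOA2 to 0.07 under median-of-ratios scaling. Under quantile normalization APOA2 was at -0.42 and stood lower in every EFTUD2 library than in every control library. The ratio of APOA1 to APOA2 within a library was 0.401, 0.341 and 0.405 in control and 0.379, 0.423 and 0.460 in EFTUD2 cells, again with overlap (log2 difference 0.14, exact permutation p = 0.4). That difference was 0.058 without control replicate 2 and 0.21 without EFTUD2 replicate 1.

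APOM, a lipocalin on HDL that carries sphingosine 1-phosphate, was the most variable of the 10. It was at 121.92, 32.24 and 57.76 FPKM in control and 75.33, 55.13 and 170.54 in EFTUD2 libraries. The highest control library was 3.78 times the lowest, and the highest EFTUD2 library 3.09 times the lowest. Control replicate 1 and EFTUD2 replicate 3 were high, and the groups overlapped. The log2 fold change was 0.54 with an SE of 0.56 (95% interval -0.80 to 1.88, limma adjusted p = 0.64). It was 0.075 without EFTUD2 replicate 3, 0.087 without control replicate 2, 0.88 without EFTUD2 replicate 2 and 1.03 without control replicate 1. Its ratio to APOA1 was 0.0854, 0.0328 and 0.0454 in control and 0.0686, 0.0433 and 0.111 in EFTUD2 libraries (log2 difference 0.46, exact permutation p = 0.5). That difference was 0.12 without EFTUD2 replicate 3, 0.15 without control replicate 2, 0.79 without EFTUD2 replicate 2 and 0.84 without control replicate 1.

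APOE, the ligand by which remnant particles bind receptors of the LDL receptor family, was at 418.91, 530.36 and 622.27 FPKM in control libraries and 649.26, 829.94 and 637.67 in EFTUD2 libraries. The groups did not overlap, but the highest control and the lowest EFTUD2 library lay close together. The means were 524 ± 102 and 706 ± 108 (SD, n = 3 each), 1.35 times as high, with a log2 fold change of 0.44 (SE 0.19, limma adjusted p = 0.40) and an exact permutation p of 0.1. With 1 library left out the log2 fold change was 0.29 (without control replicate 1) to 0.57 (without control replicate 3), and without EFTUD2 replicate 3 it was 0.50. The groups overlapped when each library was scaled to a common sum or quantile normalized.

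APOC1, its neighbour on chromosome 19 and an inhibitor of cholesteryl ester transfer protein, was at 166.62, 186.59 and 182.96 FPKM in control and 202.81, 217.86 and 163.96 in EFTUD2 cells. EFTUD2 replicates 1 and 2 were above all controls and replicate 3 below them. The log2 fold change was 0.12 (95% interval -0.21 to 0.44, limma adjusted p = 0.68). Leaving out EFTUD2 replicate 3 gave 0.23, leaving out EFTUD2 replicate 2 gave 0.031, and leaving out control replicate 1 gave 0.066. Under quantile normalization it was 0.045. The ratio of APOE to APOC1 was 2.51, 2.84 and 3.40 in control and 3.20, 3.81 and 3.89 in EFTUD2 libraries, with overlap (log2 difference 0.32, exact permutation p = 0.2). With 1 library left out that difference was 0.22 to 0.44.

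APOC3, an inhibitor of lipoprotein lipase, was at 138.93, 84.18 and 120.41 FPKM in control and 120.89, 146.75 and 209.13 in EFTUD2 libraries. One EFTUD2 library lay within the control range, and EFTUD2 replicate 3 was the highest. The log2 fold change was 0.46 (95% interval -0.15 to 1.07, limma adjusted p = 0.44). Leaving out EFTUD2 replicate 3 gave 0.25, leaving out control replicate 2 gave 0.26, and leaving out EFTUD2 replicate 1 gave 0.64. Set against APOA1, which lies next to it on chromosome 11, the groups separated: the ratio of APOC3 to APOA1 was 0.0974, 0.0856 and 0.0947 in control and 0.110, 0.115 and 0.136 in EFTUD2 libraries. That log2 difference was 0.38, with an exact permutation p of 0.1, or 0.5 after adjustment over the 5 ratios, and it was 0.29 to 0.44 with 1 library left out.

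APOA4, in the same cluster, is made mainly by the intestine, where it goes out on chylomicrons. It was low in Hep G2, at 1.96, 1.92 and 3.18 FPKM in control and 2.98, 3.7 and 2.31 in EFTUD2 libraries. The groups overlapped, with control replicate 3 above 2 of the EFTUD2 libraries. The log2 fold change was 0.26 (95% interval -0.23 to 0.75, limma adjusted p = 0.55). Leaving out EFTUD2 replicate 2 gave 0.13, leaving out control replicate 2 gave 0.17, and leaving out control replicate 3 gave 0.43. Levels of the enterocyte list summed to 111 to 130 FPKM in control and 108 to 117 in EFTUD2 libraries, most of it VIL1.

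APOH, also called beta-2-glycoprotein I, is a plasma protein that binds anionic phospholipids. It was at 489.2, 327.46 and 425.28 FPKM in the control libraries and 626.36, 696.13 and 750.26 in the EFTUD2 libraries. The EFTUD2 libraries were all above the controls, with a gap between the groups. The means were 414 ± 81.5 and 691 ± 62.1 (SD, n = 3 each), a ratio of 1.67, with a log2 fold change of 0.75 (SE 0.18, 95% interval 0.33 to 1.17, limma adjusted p = 0.39). The unadjusted limma p was 0.0040 and the exact permutation p was 0.1. Over the 16 alternative settings the log2 fold change was 0.59 to 0.88, and the adjusted p was 0.034 to 0.68. Without EFTUD2 replicate 3 it was 0.69 (limma adjusted p = 0.16).

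Ratios to APOH, chosen after its values were seen, compare it with other genes inside the same library. The ratio of APOH to APOA1 was 0.343, 0.333 and 0.335 in control and 0.571, 0.547 and 0.488 in EFTUD2 libraries. The control values were nearly equal (SD 0.02 on the log2 scale), the EFTUD2 values were all higher, and the log2 difference was 0.67. The ratio of APOH to APOB was 0.597, 0.445 and 0.539 in control and 0.657, 0.787 and 0.747 in EFTUD2 libraries, also without overlap (log2 difference 0.48). Chosen in this way, these ratios are a description, and no test of them is reported.

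**Figure D3:**
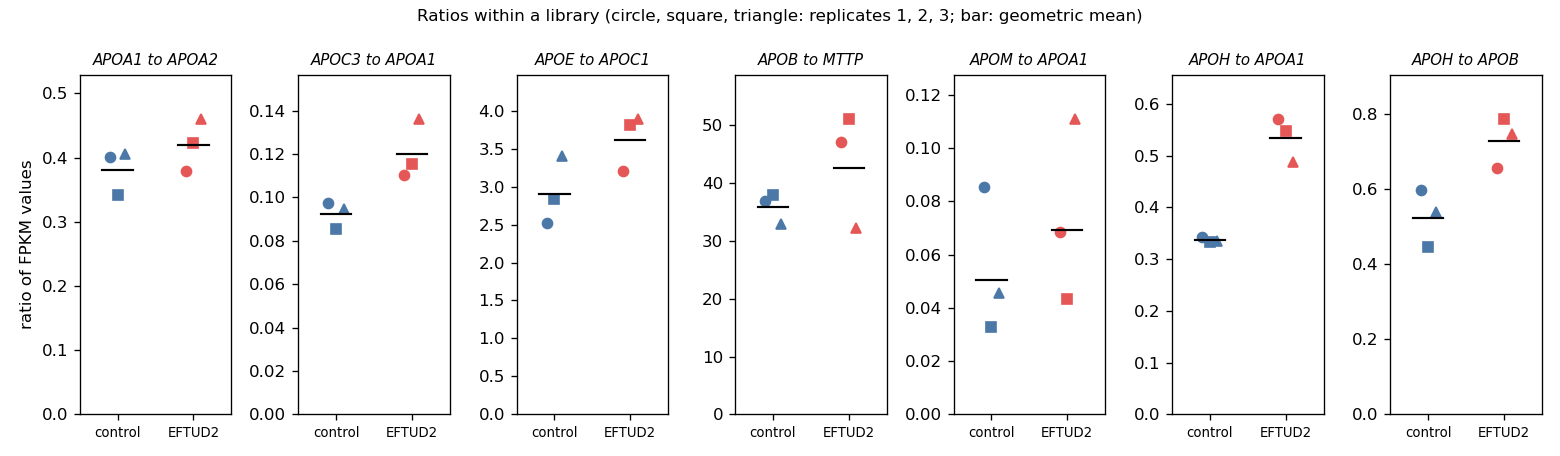
Ratio of the FPKM values of a pair of genes within each library, control in blue and EFTUD2 in red, with a bar at the geometric mean of 3; each axis starts at 0. The groups separate for APOC3 to APOA1, APOH to APOA1 and APOH to APOB, and overlap for the other ratios.

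Of the 12 hepatocyte markers, 10 had a log2 fold change above 0 and 2 below (37.3% of all genes were above 0), with a median of 0.43 against -0.07 over all genes. None passed an adjusted p of 0.05 in limma without array weights, and with them the lowest limma adjusted p was 0.025. Without these weights 3 passed an unadjusted p of 0.05, all higher, where 12.3% of all genes passed in either direction. In 4 of the 12 the groups did not overlap and EFTUD2 was higher (7.92% of all genes), and in the other 8 they overlapped. HP, the hemoglobin scavenger haptoglobin, was at 87.79, 111.18 and 182.33 FPKM in control and 447.74, 689.72 and 301.73 in EFTUD2 libraries (log2 fold change 1.89, limma adjusted p = 0.28). SERPINA1, the elastase inhibitor alpha-1-antitrypsin, was at 1937.3, 1901.41 and 2448.16 FPKM in control and 3074.73, 3190.37 and 3642.3 in EFTUD2 libraries (log2 fold change 0.66, limma adjusted p = 0.40). Both separated the groups completely. The third was the fibrinogen chain FGG, named after its values were seen, at 666.59, 353.88 and 640.7 FPKM in control and 818.65, 755.46 and 941.74 in EFTUD2 libraries (log2 fold change 0.65), also without overlap. The other fibrinogen chains, FGB (log2 fold change 0.67) and FGA (0.65), overlapped, as did TTR (-0.28) and the fetal marker AFP (-0.40). The marker sum was 7352 to 12368 FPKM in control and 11234 to 17272 in EFTUD2 libraries, and its part in the APOH, APOE and APOB results was not tested.

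Single libraries were at the edge of the range for many of the 10 genes. Control replicate 2 was the lowest of the 6 libraries for 7 genes (APOA1, APOA2, APOB, APOC3, APOH, APOM and APOA4). EFTUD2 replicate 3 was the highest for 6 (APOA1, APOB, APOC3, APOH, APOM and MTTP) and the lowest for APOC1. EFTUD2 replicate 2 was the highest for APOC1, APOE and APOA4 and the lowest for MTTP. APOM, APOA1 and APOA2 were above their own means in control replicate 1 and EFTUD2 replicate 3, and below or at them in control replicate 2. Without EFTUD2 replicate 3 the median log2 fold change of the 10 genes was 0.23. In that setting 4 of them stood higher without overlap, with APOC1 as the added gene. Of all 17222 genes, 2531 stood higher and 4339 lower in this way, against 1364 and 3337 with all 6 libraries.

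**Figure D4:**
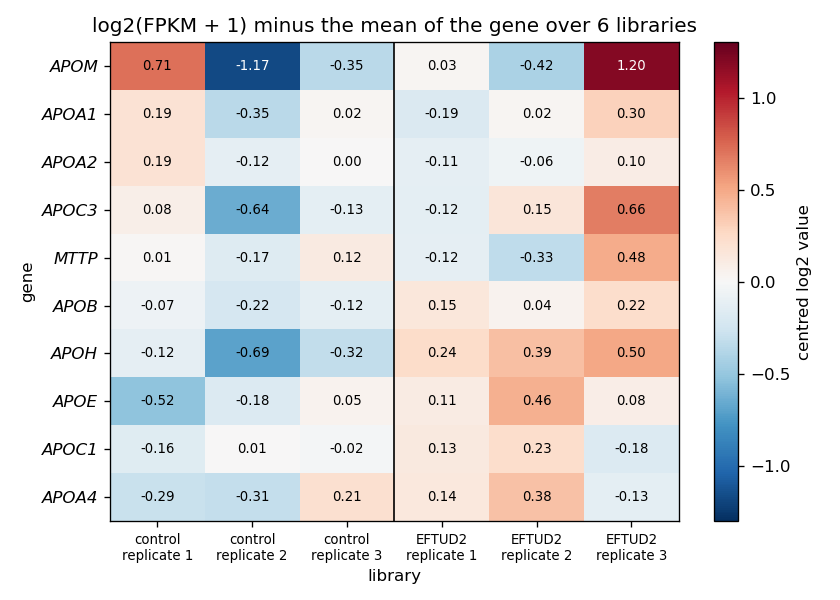
Log2(FPKM + 1) of each gene minus its mean over the 6 libraries (color and printed value); columns are libraries, with a line between the groups. APOM reaches -1.17 in control replicate 2 and 1.20 in EFTUD2 replicate 3, while APOH is below 0 in all controls and above 0 in all EFTUD2 libraries.

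For 9 of the 10, the gene with the most similar pattern is given, found by Pearson's r of log2(FPKM + 1) over the 6 libraries, among 6228 genes that averaged 10 FPKM or more. These r values describe 6 points that share the 2 groups, and the best of many genes is high by construction. They were TP53INP2 for APOA2 (0.990), KIAA0141 for APOB (0.986), YAP1 for APOC1 (0.996) and LCN15 for APOC3 (0.993). For the remaining genes they were CDA for APOE (0.987), ERGIC1 for APOH (0.991), DEPP1 for APOM (0.993), NAGLU for APOA4 (0.979) and TMEM101 for MTTP (0.995). DEPP1, like APOM, was highest in EFTUD2 replicate 3 and control replicate 1 and lowest in control replicate 2, at 44.4, 3.14 and 11.2 FPKM in control and 22.46, 13.14 and 115.51 in EFTUD2 libraries, whereas ERGIC1 was higher in every EFTUD2 library, as APOH was. The mean profile of the 10 genes was most like IRF2BPL (0.989), GALK1 (0.989) and ALDOC (0.988).

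The 10 genes held 1.77%, 1.39% and 1.59% of the summed FPKM in the control libraries and 1.60%, 1.68% and 1.81% in the EFTUD2 libraries. The shares overlapped, with means of 1.58 ± 0.192% and 1.69 ± 0.105% (SD, n = 3 each, exact permutation p = 0.4). APOA1 and APOA2 together held a mean of 1.07% in control and 1.03% in EFTUD2 cells (exact permutation p = 0.7). Without APOA2, a choice made after the values were seen, the share was 0.892%, 0.697% and 0.840% in control and 0.901%, 0.972% and 1.04% in EFTUD2 libraries. APOA2 is the 1 gene with a log2 fold change below 0, so this share is a description, and no test of it is reported.

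The other genes of the pathway are given by list. In limma with all 6 libraries and no array weights, no gene of these lists passed an adjusted p of 0.05. With array weights, where 7.23% of all genes passed, the lowest limma adjusted p was 0.013 for other apolipoproteins and 0.047 for VLDL partners. It was 0.0077 for HDL and for lipase genes, 0.011 for transcription factors, 0.076 for receptors and 0.13 for APOB editing. Without these weights, 37.3% of all genes were above 0 and 12.3% passed an unadjusted p of 0.05. Of 12 other apolipoproteins tested, 9 were above 0 and 3 below, with a median log2 fold change of 0.11, and 1 passed an unadjusted p of 0.05. That gene was APOL6, a member of the APOL family of the cytoplasm (log2 fold change 0.64), at 2.48, 3.36 and 3.22 FPKM in control and 5.33, 6.46 and 4.08 in EFTUD2 libraries. APOC2, the activator of lipoprotein lipase in the APOE cluster and named after its values were seen, stood at 194.94, 171.97 and 196.69 FPKM in control and 208.35, 206.12 and 238.16 in EFTUD2 libraries (log2 fold change 0.21), without overlap. It overlaps the readthrough gene APOC4-APOC2. CLU (log2 fold change 0.56), a chaperone in plasma, and APOL1 (0.48) overlapped.

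The partners of VLDL assembly and secretion were near the shares of all genes. Of 24 tested, 7 were above 0 and 17 below (37.3% of all genes were above 0), with a median of -0.10 against -0.07, and 1 higher and 2 lower genes passed an unadjusted p of 0.05 (12.3% of all genes). AUP1, a lipid droplet protein that also serves protein degradation at the endoplasmic reticulum, was at 116.63, 114.95 and 105.42 FPKM in control and 81.1, 85.33 and 70.9 in EFTUD2 libraries (log2 fold change -0.50, limma adjusted p = 0.33). SEC23B, a coat protein of the vesicles that leave the endoplasmic reticulum, was at 52.76, 63.23 and 53.49 FPKM in control and 46.99, 47.14 and 30.19 in EFTUD2 libraries (-0.46). Both were lower in every EFTUD2 library. CIDEB, which helps to lipidate VLDL, had a log2 fold change of -0.76 with overlap, and its highest value, 22.76 FPKM, was in control replicate 1. SOAT2, a cholesterol acyltransferase, had -0.47 with overlap.

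Among the 10 genes of HDL formation and remodelling, 6 were above 0 and 4 below (37.3% of all genes were above 0). The median log2 fold change was 0.09, and 2 passed an unadjusted p of 0.05 (12.3% of all genes), both higher. These were CETP and ABCG1, named after their values were seen, which had control means of 0.243 and 0.023 FPKM and EFTUD2 means of 0.480 and 0.567 FPKM. LIPC, the hepatic lipase (log2 fold change 0.31), PLTP, the phospholipid transfer protein (0.30), SCARB1, the HDL receptor (0.16), and LCAT (-0.30) all overlapped between the groups. Of 12 lipoprotein receptors and uptake genes, 7 were above 0 and 5 below (37.3% of all genes were above 0). Their median was 0.18, and 1 passed an unadjusted p of 0.05 (12.3% of all genes). It was LRP1, a receptor for APOE-bearing remnants, at 32.85, 36.7 and 43.77 FPKM in control and 47.79, 46.6 and 51.03 in EFTUD2 libraries (log2 fold change 0.36). SORL1 (0.55) and LSR (-0.33) overlapped.

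For lipoprotein lipase and its modulators, 4 genes were tested, 2 above 0 and 2 below (median 0.24). LPL was listed at 0 in all 6 libraries. ANGPTL8, a secreted regulator of lipoprotein lipase, was at 17.39, 15.29 and 14.9 FPKM in control and 33.27, 44.62 and 20.33 in EFTUD2 libraries. All EFTUD2 values were higher (log2 fold change 0.94, limma adjusted p = 0.40). ANGPTL8 was the 1 gene of this list to pass an unadjusted p of 0.05 (12.3% of all genes). ANGPTL4 (0.52) and LMF1 (-0.32) overlapped. In APOB mRNA editing, 2 genes were tested and both were below 0 (median -0.21). The cofactor A1CF was at 22.82, 18.28 and 18.99 FPKM in control and 16.28, 15.27 and 17.15 in EFTUD2 libraries, lower in all of them (log2 fold change -0.28), and RBM47 overlapped (-0.15). The editing enzyme APOBEC1 was at or near 0, with at most 0.03 FPKM.

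Of 24 transcription factors of apolipoprotein genes, 11 were above 0 and 13 below (37.3% of all genes were above 0). Their median was -0.08, and 2 higher and 2 lower genes passed an unadjusted p of 0.05 (12.3% of all genes). CEBPB, a liver factor of the acute phase, was at 35.74, 28.07 and 34.39 FPKM in control and 41.5, 48.51 and 57.29 in EFTUD2 libraries (log2 fold change 0.57). NR1H4, the bile acid receptor, was at 16.57, 19.93 and 19.43 FPKM in control and 27.81, 33.33 and 22.7 in EFTUD2 libraries (0.55). NR5A2, a nuclear receptor of bile acid and HDL genes, was at 4.25, 3.48 and 3.91 FPKM in control and 2.51, 2.74 and 2.9 in EFTUD2 libraries (-0.39). CEBPB and NR1H4 were higher and NR5A2 was lower in every EFTUD2 library, each with a limma adjusted p of 0.40.

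**Figure D5:**
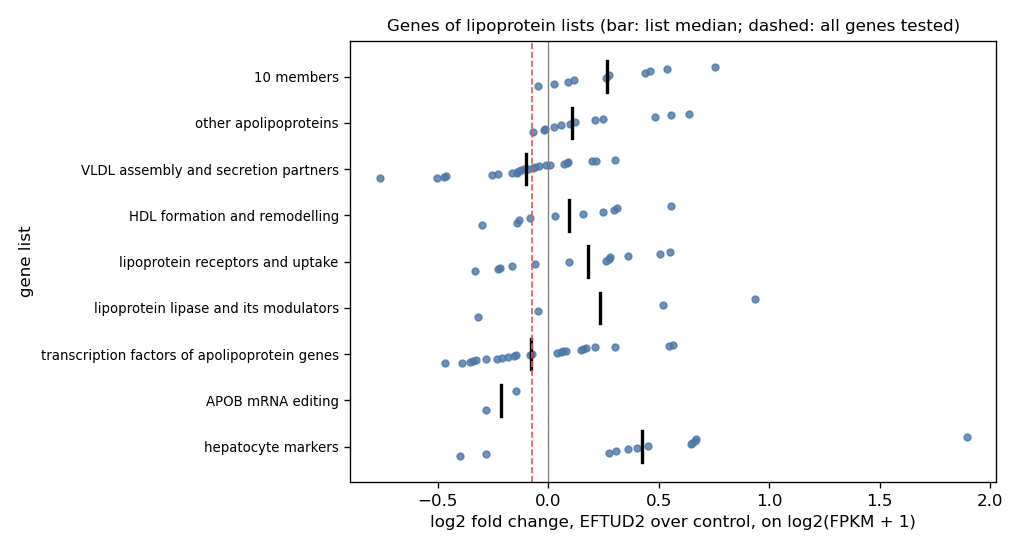
Log2 fold change of each tested gene, EFTUD2 over control, on log2(FPKM + 1), by list, with a bar at the list median and a dashed line at the median of all genes tested (-0.07). The medians run from -0.21 for APOB mRNA editing to 0.43 for hepatocyte markers, and the 10 genes have 0.27.

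The summed markers of other cell types were low or overlapped between the groups, while some single genes separated. Over all genes, 37.3% were above 0 and 12.3% passed an unadjusted p of 0.05. Without overlap, 7.92% of all genes stood higher and 19.4% lower. Among the tested markers, 1 enterocyte, 1 macrophage, 2 endothelial and 2 mesenchymal genes stood higher in this way, and 1 endothelial gene lower. Of 5 enterocyte genes tested, 3 were above 0 and 2 below (median 0.17), and 0 passed an unadjusted p of 0.05 in limma. Of 3 macrophage genes, 2 were above 0 and 1 below (median 0.19), with a sum of 19.1 to 31.9 FPKM in control and 27.7 to 36.0 in EFTUD2 libraries, mostly CD68, and CD14 passed an unadjusted p of 0.05 (log2 fold change 0.70). Of 4 endothelial genes, 2 were above 0 and 2 below (median 0.11), with sums of 1.26 to 1.68 and 1.32 to 1.75 FPKM, and 2 passed an unadjusted p of 0.05, both higher. Of 7 fibroblast and mesenchymal genes, 6 were above 0 and 1 below (median 0.36), with sums of 698 to 1114 and 716 to 1278 FPKM, mostly FN1, and 2 passed, both higher. One of these was VIM, an intermediate filament, at 0.06, 0.08 and 0.12 FPKM in control and 23.22, 59.59 and 2.87 in EFTUD2 libraries. VIM was higher in every EFTUD2 library (log2 fold change 4.04, limma adjusted p = 0.35). The part of these markers in the apolipoprotein values was not tested.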

How the data were processed

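RNA-seq of 6 Hep G2 libraries (3 control, 3 EFTUD2) was used, grouped by their labels. The authors deposited 1 table of FPKM per gene and library, rounded to 2 decimals. Libraries of poly-A RNA, isolated with TRIzol, were read on the BGISEQ-500 platform. The submitters' processing notes name hg38, HISAT2, Bowtie2, RSEM and DESeq2, with no roles or versions. Depth is unknown, so no counting interval is given.

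Each deposited FPKM value was turned into log2(FPKM + 1), and 17222 of 23524 genes, those averaging 0.1 FPKM or more in the 6 libraries, entered the test. This filter was the same when a library was left out. Groups were compared with limma 3.58.1 (lmFit, eBayes with trend) in R 4.3.3, with Benjamini-Hochberg adjustment over all 17222 genes and a threshold of 0.05. Fold changes on this scale understate the change of low genes. For single values the permutation test was exact and two-sided, and cannot give a p below 0.1. Summaries used Python 3.11.15, pandas 2.3.3, scipy 1.17.1 and matplotlib 3.10.9. The fit was tested on simulated data. Positions and promoters came from RefSeq tables (GRCh38.p14).

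The 10 genes and all lists were chosen with earlier results of these data known, and no list was tested as a set. Named genes were the 10, EFTUD2, up to 4 of each list with the largest log2 fold change in size at a mean of 1 FPKM or more, the markers ALB, AFP, TTR, SERPINA1 and VIM, and the genes most like the 10. Others are said to be named after their values were seen, or are named for being at or near 0. A few of the named genes are not reported here. Alternatives were 2 other pseudocounts, 2 filters, 3 scalings, robust eBayes, array weights, a replicate block and each library left out.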

Additional observations from a re-analysis of the deposited data

How the results depend on the processing

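The log2 fold changes of APOH, APOE, APOB, APOC1, APOC3, APOM and APOA4 kept their direction in all 16 alternatives. The 2 filters, robust eBayes and the replicate block cannot change a log2 fold change, so they are no check on direction. The sizes varied: APOB was 0.063 to 0.39, APOC1 0.031 to 0.23 and APOE 0.29 to 0.57. APOC3 was 0.25 to 0.64, APOA4 0.13 to 0.43 and APOM 0.075 to 1.03. APOA2 turned to 0.069 under median-of-ratios scaling, and was -0.12 to 0.032 with 1 library left out. APOA1 turned to -0.14 under quantile normalization, and was -0.062 to 0.21 with 1 library left out. MTTP turned to -0.017 under common sum scaling and -0.34 with array weights, and was -0.21 to 0.20 with 1 library left out. The cause was not tested. Of the 10 genes, 1 passed with array weights (APOH), which gave control replicate 3 a weight of 27.7 and EFTUD2 replicate 1 a weight of 0.035, and 0 passed in the other alternatives.

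The count of the 10 genes that stood apart without overlap, in either direction, was 2 to 4 over 11 alternatives. Under quantile normalization it was 2, with APOH higher and APOA2 lower. With 1 library left out, 1677 to 2531 of all 17222 genes stood higher and 4039 to 4584 lower in this way. With all 6 libraries these counts were 1364 and 3337. Under the 3 scalings they were 1177 to 2053 higher and 2084 to 3965 lower. APOH, APOB and APOE stood apart with all 6 libraries, so a changed filter or a library left out could not make their groups overlap. Only the 3 scalings could. APOH stood higher under all 3, APOB under all but quantile normalization, and APOE under median-of-ratios scaling only. The median log2 fold change of the 10 genes was 0.16 to 0.37. The median over all genes was -0.07, 0.00 under median-of-ratios scaling, where 50.3% of genes were above 0, and -0.13 under common sum scaling. Without EFTUD2 replicate 3, 131 of all genes passed, and 0 of the 10. The difference in the share of summed FPKM held by the 10 genes was 0.0121 (without control replicate 2) to 0.204 percentage points (without control replicate 1), against 0.11 with all libraries.

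Same-numbered libraries of the groups correlated at -0.30, 0.35 and -0.09 in their deviations, so the numbers were not taken as pairs. With the replicate block, 0 of the 10 genes passed, their median was 0.27, and APOH had a limma adjusted p of 0.42. Depth could not be judged from FPKM.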
